A study of Mus musculus with 2 samples.

Results

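The 10 genes described here encode folliculin (Flcn) and its partners Fnip1 and Fnip2, the MiT/TFE transcription factors Tfeb, Tfe3 and Mitf, the mTOR kinase (Mtor) and its adaptor raptor (Rptor), and the tuberous sclerosis proteins Tsc1 and Tsc2. They were taken by name, and 16 probes out of 55681 on the array carried one of the 10 names out of 34797 gene names. The set was chosen by the signal of Fnip2, which was far higher in atopic diathesis, and the other members are the genes that work with it. The values of this contrast thus selected the set, and every difference below is a description with no test behind it. One sample was microglia sorted from the spinal cord of atopic diathesis model mice, titled activated by the submitters. The other was microglia sorted from control mice, titled normal. Each was measured once, on a 1-colour Agilent mouse array with Cy3-labelled cRNA. The strain, age, way of making the model, sorting markers and number of animals in a sample are not given in the sources used here. With 1 array per group no error between animals can be had, and a lower signal from fewer cells carrying a transcript cannot be told apart from less RNA per cell.

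Cells read amino acid supply at the lysosome. When amino acids are plentiful, Rag GTPases on the lysosomal surface recruit the kinase complex mTORC1 through raptor, and the GTPase Rheb switches it on, while the TSC complex holds Rheb back. Folliculin, bound to Fnip1 or Fnip2, acts on RagC and RagD, which lets mTORC1 phosphorylate Tfeb, Tfe3 and Mitf and keep them out of the nucleus. Once dephosphorylated, these factors enter the nucleus and switch on genes for lysosomes and autophagy, so in phagocytes such as microglia the pathway ties nutrient state to digestive capacity.

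Each member was read by 60-base probes. The stretches below come from the probes whose signals carry the main results, because each of these signals stands for whatever labelled cRNA paired with those bases. They are written 5′ to 3′ as the scanner files give them, and capitals mark the polyadenylation signal hexamer AATAAA where the stretch holds it.
Fnip2, mm9 chr3:79260201-79260260, minus strand, bases 1 to 30: aactttttcctaaaacaacattcatgtatt
Tsc1, mm9 chr2:28546610-28546669, plus strand, bases 1 to 30: gctgtctttagaatgttctaaaatgtcaag
Mitf brighter probe, mm9 chr6:97971229-97971288, plus strand, bases 1 to 30: cagcaatactttctgtatggtccgcagcac
Fnip1, mm9 chr11:54331675-54331734, plus strand, bases 30 to 59: ggaaatttgtgcAATAAAcactcatgtcaa
Flcn brightest probe, mm9 chr11:59605260-59605319, minus strand, bases 31 to 60: aagaatgttgaaacacAATAAAtctgtatt
The hexamer stood in 4 of the 16 member probes (1 each for Flcn, Fnip1, Tfe3 and Mtor) and in 10.1% of all probes. Every member probe held a stop codon in at least 1 of its 3 forward reading frames, and 5 held one in every frame. The shares over all probes were not computed, so nothing is read from these stop codon counts. The GC content of the member probes ran between 26.7% and 55%, with a median of 35% against 43.3% over all probes. No other probe on the array shared a run of 18 bases with any of the 16 on the same strand. An mm9 gene annotation was not used here, so exon and UTR boundaries are not stated.

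The software marked 27.6% of probes as well above background in atopic diathesis and 24.1% in control, and 11266 probes were so marked on both arrays. No spot was saturated. Differences below are log2 ratios of atopic diathesis over control, after each array was divided by its 75th percentile over those 11266 probes (724 fluorescence units in atopic diathesis and 784 in control). Probes printed 10 times on an array varied between spots with an SD of 0.14 in atopic diathesis and 0.15 in control on the log2 scale, close to the error that the software gives each spot. The 95% intervals use the software's error, so they cover spot error and not the spread between animals or RNA preparations. The 14 microglia markers (of which 1 is also in the lysosome list below) were well above background on both arrays, with differences between -0.36 and 0.64 on the log2 scale. Before scaling, their brightest probes summed to 168237 in atopic diathesis and 184424 in control. Itgam alone gave 82663.4 of this in atopic diathesis and 92919.5 in control. Sums for other cell markers below are also unscaled.

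Of the 16 member probes, 10 were well above background on both arrays and covered 8 of the 10 genes. Among those 10, the probes for Fnip2, Tsc1 and Mitf were at least 2-fold higher in atopic diathesis. None was at least 2-fold lower, and the other 7 lay within 2-fold. Over all 11266 such probes the share past 2-fold upwards was 18.8% and the share past 2-fold downwards was 14.9%, so large differences were common between these arrays. Since the set was built around one of those probes, nothing is read from the count of 3. At a limit of 1.5-fold, 4 member probes were higher, beside 29% of all such probes, and 1 was lower, beside 23.4%. At 3-fold, 3 were higher, beside 11%, and 0 lower, beside 8.39%. The median member difference was 0.25 on the log2 scale, beside 0.09 over all detected probes. A further probe, for Mitf, was above background in atopic diathesis only, as were 7.41% of all probes. For Tfeb and Tsc2, 1 probe each was above background in control only, as were 3.89% of all probes. Another 3 member probes (1 each for Flcn, Tfeb and Mtor) were detected on neither array.

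**Figure D1:**
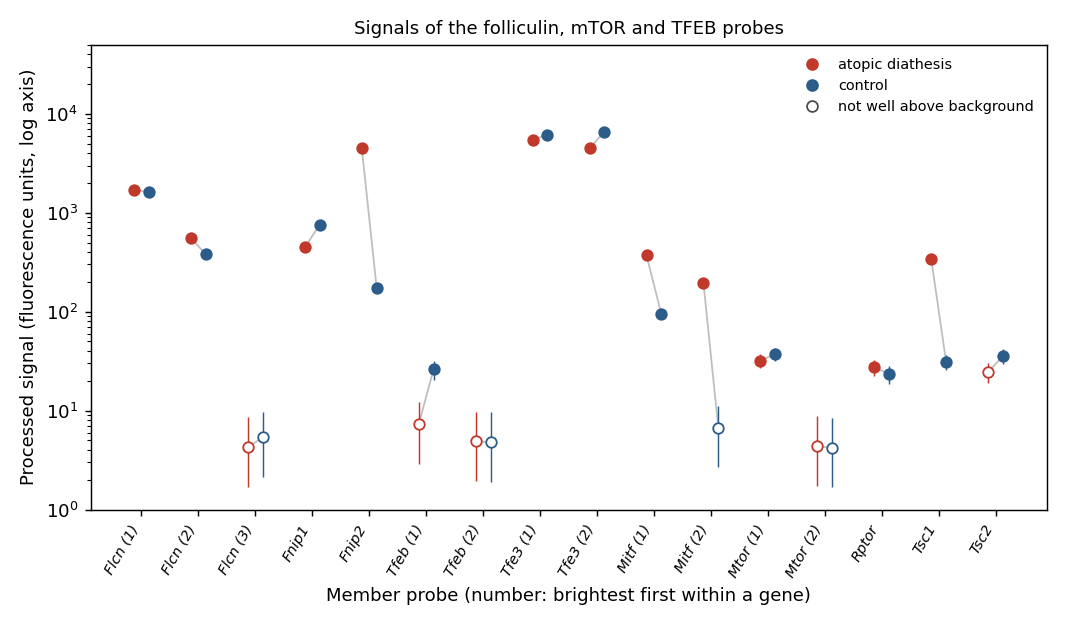
Processed signal in fluorescence units (log axis) of each of the 16 member probes on the atopic diathesis array (red, left of each pair) and the control array (blue, right). Bars are the software error of each spot to either side, not a 95% interval, and the lower bar is cut short for the dimmest spots. Open circles are spots not well above background. Fnip2 lies at 4490.4 in atopic diathesis and 175 in control, and the Tfe3 probes are bright on both arrays, with 4469 or more; no spread between animals is drawn because each group has 1 array.

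Fnip2, which binds folliculin and also AMPK, had a signal of 4490.4 in atopic diathesis and 175 in control. The log2 difference was 4.79 (95% interval 4.39 to 5.20), a 27.7-fold higher value. It ranked 33rd among the 11266 detected probes. Of the 663 detected probes whose signal in atopic diathesis was at least as high as that of Fnip2, 1 had a larger difference (5.84). Fnip2 was picked as a bright gene far up in this same contrast, so both ranks restate that choice. When the probes were cut by mean signal into 5 equal bins, the bin that holds Fnip2 had 17.7% of its probes at least 2-fold higher. The spot was read from 44 pixels with a mean of 4439 and an SD of 723 in atopic diathesis, and from 43 pixels with a mean of 248 and an SD of 54.7 in control. The local background median was 53 on both arrays. The highest signal among the 8 adjacent spots was 242 in atopic diathesis and 224 in control. The control spot carried a flag for an outlying local background, and with every flagged spot left out Fnip2 had no value. The value rests on 1 spot of 1 probe per array.

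Fnip1, the paralogue of Fnip2, lay on the other side of 0. Its probe gave 445 in atopic diathesis and 757 in control, a log2 difference of -0.65 (95% interval -1.05 to -0.25). That is within 2-fold, and 21.6% of detected probes had a difference as low or lower.

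Flcn was read well above background by 2 probes that lie close together on chromosome 11. The brightest gave 1698 in atopic diathesis and 1637 in control, with a log2 difference of 0.17 (95% interval -0.23 to 0.57) that spans 0. The dimmer one, at mm9 chr11:59605343-59605402, gave 555 in atopic diathesis and 379.7 in control, a log2 difference of 0.66 (95% interval 0.26 to 1.07). Both were within 2-fold. The third Flcn probe, designed on another transcript, gave 4.27 in atopic diathesis and 5.36 in control and was detected on neither array.

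The probes whose differences lay nearest to that of Fnip2, among those with at least the median brightness, belonged to Ankrd27 (4.78), Ube2j2 (4.78), Hspa4 (4.74), Ube2j1 (4.74) and Jmjd1c (4.73), all as log2 differences over this 1 pair of arrays. The brightest of them in atopic diathesis was Ube2j2, with a signal of 1184 there and 46.6 in control. Likeness here means only a similar ratio between the same 2 arrays.

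**Figure D2:**
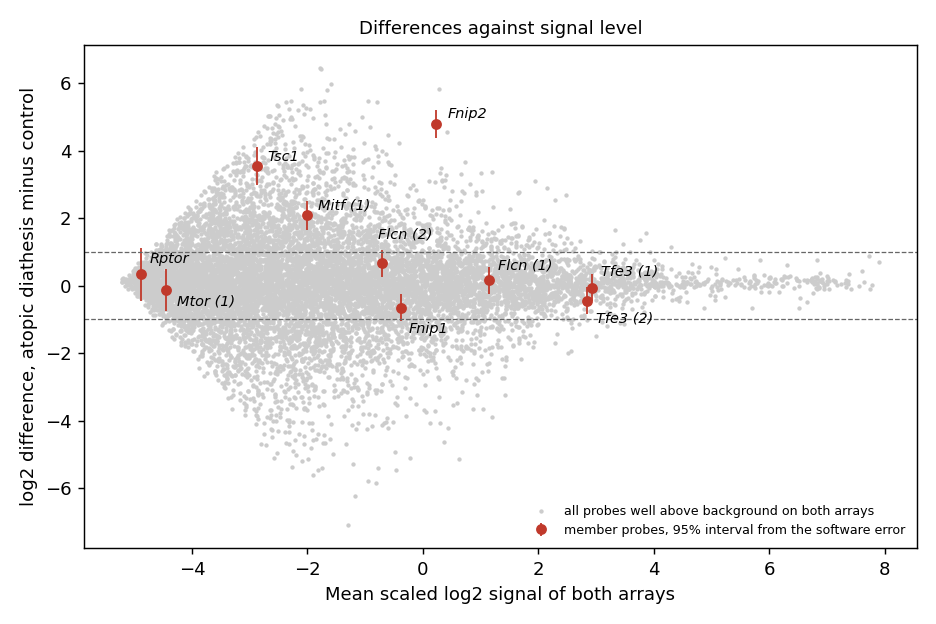
Log2 difference, atopic diathesis minus control, against the mean scaled log2 signal of both arrays for the 11266 probes well above background on both (grey) and the 10 member probes among them (red, with 95% intervals from the software error); dashed lines mark 2-fold. Fnip2 lies at 4.79, Tsc1 at 3.55 and Mitf at 2.08, and the other 7 member probes lie between the dashed lines.

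The factors downstream of folliculin differed among themselves. Mitf, the MiT/TFE member best known for melanocytes and osteoclasts, was higher in atopic diathesis on both of its probes. The brighter one gave 370.3 in atopic diathesis and 94.7 in control, a log2 difference of 2.08 (95% interval 1.66 to 2.51) or 4.24-fold. The dimmer one gave 194 in atopic diathesis and 6.71 in control, where it was not well above background, so it was at least 10.6-fold higher. Among the 4123 probes detected in atopic diathesis only, 63% had a bound of at least 2-fold. With normexp background correction the same probe came out 3.78-fold higher, so the size of the difference depends on how the dim control spot is treated.

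Tfe3, which acts beside Tfeb on the same target genes, was bright on both arrays. One probe gave 5411 in atopic diathesis and 6135 in control, a log2 difference of -0.07 (95% interval -0.47 to 0.33). The other gave 4469 in atopic diathesis and 6595 in control, a log2 difference of -0.45 (95% interval -0.85 to -0.05), and its atopic diathesis spot carried a flag for an outlying local background. Both were within 2-fold.

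Tfeb was near the limit of detection. Its probe on the RefSeq transcript gave 7.27 in atopic diathesis, not well above background, and 26.2 in control. The lowest signal counted as well above background was 18.2 in atopic diathesis and 19.8 in control, which puts the bound at 1.33-fold lower before any spot error. With normexp background correction the log2 difference was -0.14, smaller than that bound, so no difference in Tfeb was detectable at this signal. The other Tfeb probe gave 4.91 in atopic diathesis and 4.79 in control, below background on both arrays.

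The mTORC1 genes themselves gave signals near the limit of detection. Mtor, the kinase, had 31.8 in atopic diathesis and 37.5 in control on 1 probe, a log2 difference of -0.12 (95% interval -0.74 to 0.50). A second Mtor probe, on another transcript, gave 4.36 in atopic diathesis and 4.21 in control and was not detected. Rptor, the adaptor that binds mTORC1 substrates, had 27.4 in atopic diathesis and 23.5 in control, a log2 difference of 0.34 (95% interval -0.45 to 1.12). Both intervals span 0, reaching 0.62 for Mtor and 0.79 for Rptor to either side against 0.40 for the Flcn and Tfe3 probes, so a smaller difference was not detectable at these signals.

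The partners of the TSC complex were read at unequal precision. Tsc1 (hamartin), which stabilises the complex, gave 337 in atopic diathesis and 31.2 in control, a log2 difference of 3.55 (95% interval 2.99 to 4.11) or 11.7-fold. The size depends on how the dim control spot is treated: the log2 difference was 2.13 with normexp and 1.96 with the uncorrected signal (3.89-fold), both outside that interval. Its control signal was near the lowest signal counted as well above background, and in its bin by mean signal 28.2% of probes were at least 2-fold higher. Tsc2 (tuberin), which holds the GTPase-activating domain for Rheb, gave 24.5 in atopic diathesis, not well above background, and 35.9 in control, a ratio of 1.35-fold lower that does not take in spot error. With normexp its log2 difference was -0.11, so no difference in Tsc2 was detectable at this signal. Among the 2165 probes detected in control only, 52.7% had a bound of at least 2-fold. The difference between the partners was not tested.

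To see what the members share in their promoters, the RefSeq windows of GRCm38.p6 reaching 250 bases before and 50 bases after each start were searched on both strands. All 10 genes matched, with 15 windows. The E-box CACGTG, which bHLH factors including the MiT/TFE family recognise, stood in 1 of the 15 windows and in 7.15% of 32851 windows of the same length. That window was the promoter of Fnip1, where the motif (capitals) covers bases 75 to 70 before the start.
Fnip1, GRCm38.p6 chr11:54438092-54438121, plus strand: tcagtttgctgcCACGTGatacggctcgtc
The longer GTCACGTG, which contains the E-box, was in none of the 15 windows and in 2.25% of all windows. TCATGTG was also in none of them and in 3.77% of all windows. These are letter matches within short windows and say nothing of binding.

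The rest of the pathway was read from 9 lists with 124 genes, of which 71 had at least 1 probe detected on both. Of the 71, 11 (15.5%) were past 2-fold upwards, 7 (9.86%) past it downwards and 53 within it. Over all 9220 measured genes the shares were 18.6% upwards and 14.2% downwards, so the pathway as listed held no larger a share of large differences than the array as a whole. Its median log2 difference was 0.30, against 0.08 over all measured genes. A further 17 genes were detected in atopic diathesis only, 9 in control only and 25 on neither array, and Slc38a9 and Rps6kb1 had probes of both 1-array kinds. Bounds, given below as "at least", rest on the software's background subtraction. The bound of the dimmer Mitf probe fell from 10.6-fold to 3.34-fold with normexp and 2.85-fold with the uncorrected signal. Bounds of the pathway genes were not recomputed in this way and may be smaller too.

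The Rag GTPases and their Ragulator anchor, on which folliculin acts, were the list with the lowest median, -0.85 over 6 measured of 10 genes. Rragc, the Rag that folliculin stimulates, had 139 in atopic diathesis and 645 in control, a log2 difference of -2.10. Of the Ragulator scaffold subunits, Lamtor5 had 55.6 in atopic diathesis and 236 in control (-1.97), and Lamtor4 had 944 in atopic diathesis and 2213 in control (-1.11). The other 3 measured genes, Rraga, Lamtor1 and Lamtor3, were within 2-fold. Lamtor2 was detected in control only and was at least 2.43-fold lower. Rragb and Rragd were not detected on either array. Slc38a9, the lysosomal arginine transporter that signals to the Rags, gave 486 in atopic diathesis and 4.47 in control on its brightest probe (at least 26.6-fold higher), but another of its 3 probes was detected in control only, so its probes disagree.

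Upstream of the Rags, the 4 measured genes of GATOR1, KICSTOR and GATOR2 (of 11) were all within 2-fold, with a median of 0.62. Wdr24, a GATOR2 subunit, had 52.4 in atopic diathesis and 7.05 in control and was at least 2.87-fold higher. Itfg2, a KICSTOR subunit, went the other way, with 16.3 in atopic diathesis and 496 in control, at least 25.1-fold lower. Of the 7 amino acid sensors 2 were measured. Castor2, of the arginine sensor family, had 540.3 in atopic diathesis and 98.4 in control, a log2 difference of 2.57. Another 4 sensor genes were detected in atopic diathesis only, and 3 of these had bounds of at least 2-fold: Bmt2, the S-adenosylmethionine sensor, at 2.13-fold, Lars, the leucyl-tRNA synthetase, at 2.80-fold, and Sesn3, a sestrin, at 2.79-fold. None of the 7 was detected in control only. Over all probes 7.41% were detected in atopic diathesis only and 3.89% in control only. Of those in atopic diathesis only, 63% had a bound of at least 2-fold, so nothing is read from the sensor counts.

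The other mTOR complex subunits and Rheb were mostly dim: 3 of 12 were measured, all within 2-fold, and Rheb itself was at -0.21. Prr5, an mTORC2 subunit, was at least 2.40-fold higher, while its relative Prr5l was at least 2.72-fold lower. Tbc1d7, the remaining subunit of the TSC complex, had 12.9 in atopic diathesis and 80.7 in control and was at least 4.10-fold lower. Among mTORC1 effectors, 4 of 13 genes were measured and all were within 2-fold, with a median of 0.24. Lpin1, the phosphatidate phosphatase lipin 1, had 196 in atopic diathesis and 5.36 in control (at least 10.7-fold higher), and Rb1cc1, the scaffold of the autophagy-starting ULK complex, had 179 in atopic diathesis and 3.99 in control (at least 9.81-fold higher). The S6 kinase gene Rps6kb1 had 11.3 in atopic diathesis and 630 in control on its brightest probe, at least 31.9-fold lower, but another of its 4 probes was detected in atopic diathesis only.

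AMPK and the PI3K to Akt branch are both known to act on the TSC complex. Large differences were common over all measured genes, with 18.6% past 2-fold upwards and 14.2% downwards. With only 7 and 9 genes measured here, nothing is read from the counts of these lists. Of the 12 genes of AMPK, the energy sensor that binds the folliculin complex, and its activator LKB1, 7 were measured, and 2 were at least 2-fold higher. Both encode AMPK gamma subunits: Prkag2 had 644 in atopic diathesis and 85.4 in control (3.03), and Prkag1 had 331 in atopic diathesis and 54.1 in control (2.73). Prkaa1, a catalytic subunit, had 205 in atopic diathesis and 15.1 in control (at least 11.2-fold higher), and Strada, a partner of LKB1, had 36.6 in atopic diathesis and 3.92 in control (a bound just past 2-fold). Of the 14 genes of the PI3K and Akt input 9 were measured and 3 were at least 2-fold higher. Pdpk1, the kinase that activates Akt, averaged 2.79 over 2 probes (2.45 and 3.14), and its brightest probe had 432 in atopic diathesis and 53.2 in control. Pik3r5, a regulatory subunit outside the naming rule that was named after its value was seen, was at 1.53. Phlpp1, a phosphatase that acts on Akt, and Pik3cb, a PI3K catalytic subunit, were detected in atopic diathesis only, at least 3.69-fold and 2.70-fold higher. Neither list held a measured gene at least 2-fold lower, but the gene for LKB1 itself, with 198 in atopic diathesis and 425 in control, was just short of it at -0.99, the lowest value of its list.

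Of the 14 regulators of Tfeb localisation (calcineurin subunits, 14-3-3 proteins and others) 12 were measured. Map4k3, a kinase that responds to amino acids, had 184 in atopic diathesis and 32.5 in control (2.61). The catalytic subunits of calcineurin, the phosphatase that releases Tfeb, differed among themselves: Ppp3cb had 864 in atopic diathesis and 248 in control (1.91), Ppp3ca had 1585 in atopic diathesis and 4686 in control (-1.45), and Ppp3cc had 84.5 in atopic diathesis and 89.7 in control (0.03). Of the 12, 9 were within 2-fold, Ppp3cc among them, with a median of 0.07 for the whole list. The 2 higher and 1 lower genes stand beside 18.6% higher and 14.2% lower over all measured genes. In the Ywhaq gene 5 measured probes ran between -1.72 and 0.92, which shows how far probes of a single gene could differ on these arrays.

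Of the 31 lysosome and autophagy genes of the CLEAR network, the known targets of Tfeb and Tfe3, 24 were measured, with 18 within 2-fold, 3 past it upwards, 3 past it downwards and a median of 0.27. Over all measured genes 18.6% were past 2-fold upwards and 14.2% downwards, so these counts are near the background. Of the genes detected on 1 array only, 2 had bounds past 2-fold upwards (2.63-fold and 2.94-fold) and 2 downwards (2.44-fold and 12.6-fold). Atp6v1a, the catalytic subunit of the lysosomal proton pump, had 1250.3 in atopic diathesis and 164 in control (3.04). Map1lc3b, which coats autophagosomes, had 684 in atopic diathesis and 173 in control (2.10). Ostm1, the partner of the lysosomal chloride transporter, had 531 in atopic diathesis and 3842 in control (-2.74), and Nagpa, which finishes the mannose phosphate tag of lysosomal enzymes, had 71.2 in atopic diathesis and 309 in control, a 4-fold lower value. Uvrag, also past 2-fold (1.71), was named after its value was seen. Bright hydrolase genes were within 2-fold, such as Ctsb with 19979 in atopic diathesis and 16466 in control (0.39). For Sqstm1, the autophagy receptor, 2 probes disagreed at -1.01 and 1.72.

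**Figure D3:**
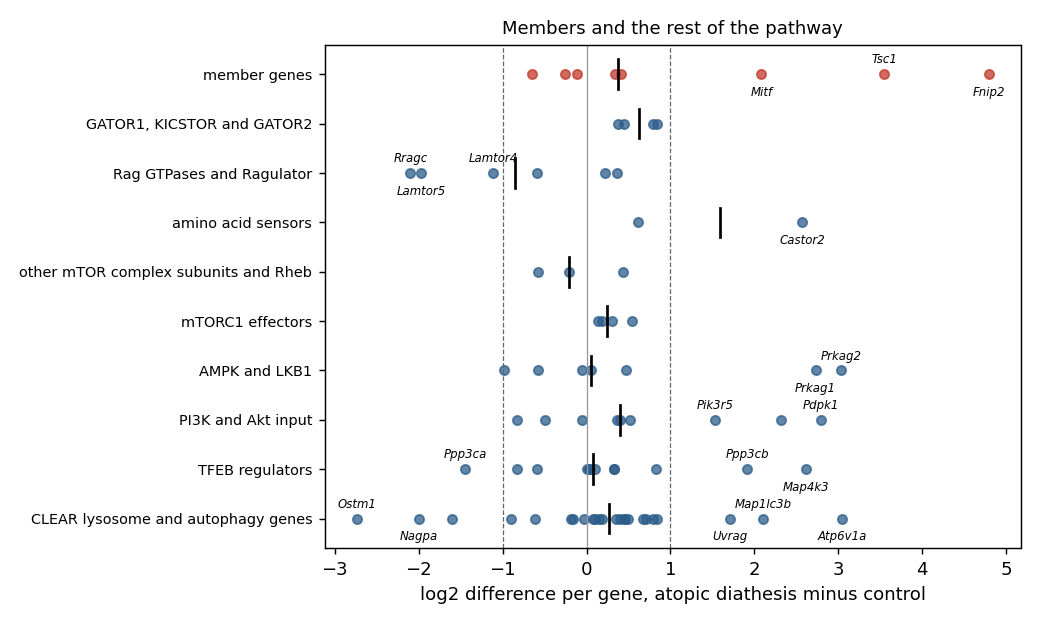
Log2 difference per gene, atopic diathesis minus control, for the 8 measured member genes (red, top row) and the measured genes of each pathway list (blue); black ticks are the median of a row and dashed lines mark 2-fold, and no error is drawn because each group has 1 array. Most genes past 2-fold are named. The Rag and Ragulator row has 3 lower genes and no higher one among 6 measured, beside 14.2% lower over all measured genes.

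Markers of other cells were weak but not equal between the arrays, and their part in the differences above was not tested. Of 8 astrocyte markers 5 were detected in atopic diathesis and 3 in control, with a summed signal of 1612 in atopic diathesis and 1340.2 in control. Gja1 and Sox9 were detected in atopic diathesis only, at least 13.2-fold and 13.9-fold higher, while Gfap, at 69.5 in atopic diathesis and 83.3 in control, was within 2-fold. Of 11 oligodendrocyte lineage markers, 5 were detected in atopic diathesis and 4 in control, with sums of 1082 in atopic diathesis and 1097 in control, and Cnp stood 1.78 higher on the log2 scale. Among 10 neuron markers Snap25 was bright on both arrays, at 84015 in atopic diathesis and 82155 in control. Gad2 was detected in atopic diathesis only, and the other 8 on neither array. Of 8 endothelial and pericyte markers 1 was detected on each array, Pecam1 in atopic diathesis and Flt1 in control. Of 13 markers of other leukocytes only Nkg7 was detected, at 63.0 in atopic diathesis and 121 in control. The defining markers Aqp4, Mog, Rbfox3, Cldn5 and Cd3e were below detection on both arrays.

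The choice of scale and of background correction decided the direction of some small differences, and moved the size but not the direction of the large ones. Dividing by the 75th percentile of all probes instead of the detected ones shifted the median detected probe to -0.50, and quantile normalization shifted it to -0.16, against 0.09 on the scale used here. Across the alternatives tried, Fnip2 ran between 4.21 and 4.79 in 11 settings, Tsc1 between 1.96 and 3.55 in 11, and the brighter Mitf probe between 1.48 and 2.09 in 12, and each was at least 2-fold higher in all of those settings. The Fnip1 difference was below 0 in all 12 settings that gave it a value, between -1.23 and -0.58. The brighter Flcn probe ran between -0.41 and 0.17, Mtor between -0.70 and 0.09 and Rptor between -0.26 and 0.34, so these 3 have no settled direction.

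**Figure D4:**
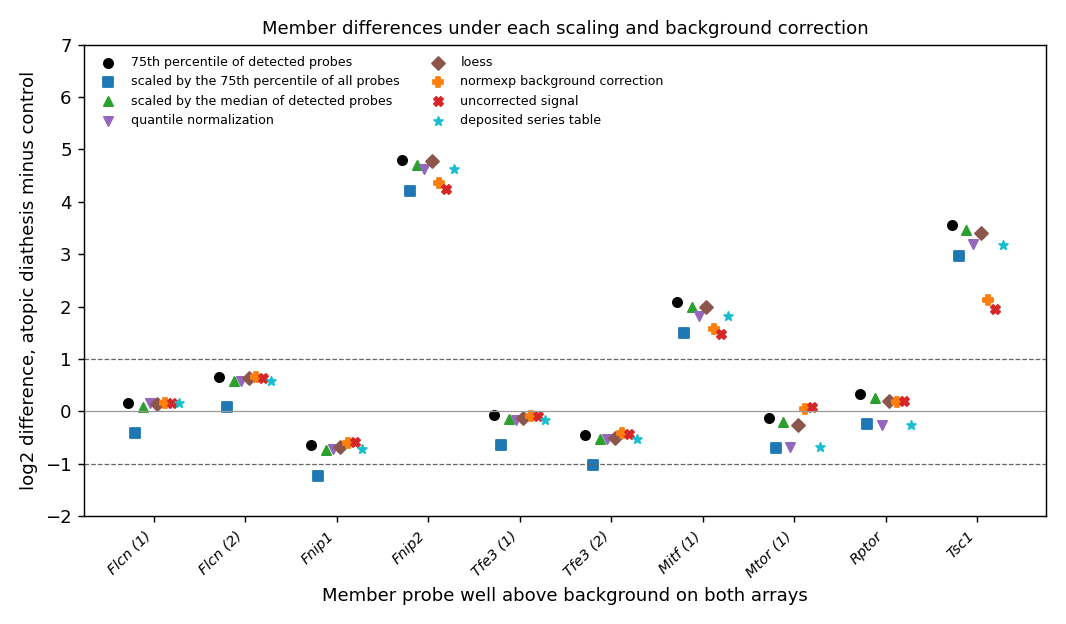
Log2 difference, atopic diathesis minus control, of the 10 member probes well above background on both arrays under the scale used here (black circles) and 7 other scalings, background corrections or deposited values (coloured symbols), with dashed lines at 2-fold. Fnip2, Tsc1 and Mitf stay above the upper line under each of them, and Fnip1 stays below 0.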

How the data were processed

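Microglia RNA from 1 atopic diathesis and 1 control sample was measured on the same slide, so slide was shared and position on it cannot be told apart from group. The deposited scanner files hold fluorescence intensity per spot on a linear scale; per the file headers the authors used Agilent Feature Extraction 10.7.1.1 (9.5.1.1 in the submitters' processing notes). The processed intensity is background-subtracted by that software. Coordinates of probes are on mm9 as the files give them, and the gene names of 2878 probes were updated through RefSeq GRCm38.p6 accessions. A series table was also deposited; its intensities rank as the scanner values do (Spearman 1.00 across probes), with medians of 6.64 on both arrays. Its sorted columns differ by less than 0.01 (log2) at 100% of ranks, and no source used here states how it was made.

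Control spots and spots marked as feature outliers (122 in atopic diathesis and 136 in control) were left out, repeated spots were averaged, and log2 processed signal minus each array's log2 75th percentile over probes well above background on both arrays was compared. Intervals are 1.96 times the combined software error. A probe detected on 1 array has a bound: its signal over the higher of 2 values of the other array, the lowest detected signal and the probe's own, after scaling; it does not take in spot error. Gene values are means over probes detected on both arrays. For a gene without such a probe, the count of bounds in a list uses its probe with the largest bound. Since each group has 1 array, nothing was tested and p-values are absent, and the number of arrays limits the precision. The calculations ran in Python 3.11.15 and R 4.3.3 (limma 3.58.1 for normexp with an offset of 50), with loess of span 0.4 as an alternative. The scaling code was run on simulated data with few changed probes, as many up as down. In the real data 33.7% of detected probes were past 2-fold, so that run cannot show which scaling holds for these arrays. The members and gene lists were chosen with earlier results of these data known. Named genes are all members, the 5 nearest to Fnip2, and in each pathway list up to 2 largest differences each way past 2-fold and, where a list has 3 or fewer, the bounds of at least 2-fold; a few of these are not reported here.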

Additional observations from a re-analysis of the deposited data

How the results depend on the processing

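No paired analysis was possible because each group has 1 array. The count of member probes at least 2-fold higher was 3 and ran between 2 and 4: Tsc1 dropped out when signals had to be 4 times the lowest detected signal, and Fnip2 had no value when every flagged spot was left out. Member probes at least 2-fold lower, 0 as reported, became 2 when scaled by a percentile over all probes (Fnip1 and 1 Tfe3 probe), 1 (Tfeb) when detection on 1 array sufficed, 1 with no filter, and 1 (Fnip1) at 1.5-fold. The Fnip2 difference of 4.79 became 4.21 when scaled by all probes, 4.36 with normexp and 4.24 with the uncorrected signal, and Tsc1 (3.55) became 2.13 with normexp and 1.96 uncorrected. Other pathway genes at least 2-fold higher, 11 as reported, became 29 with detection on 1 array, 33 with no filter and 6 with the brighter limit. Those at least 2-fold lower, 7 as reported, became 17 when scaled by all probes, 11 with quantile normalization, 11 in the deposited series table, 19 with detection on 1 array and 15 with no filter. Member probes with a bound of at least 2-fold numbered 2 instead of 1 when scaled by all probes. Wider filters admit dim probes by construction; the cause of the other changes was not tested. Signal over background limits Mtor, Rptor, Tfeb and Tsc2, and no alternative replaces a second animal or array.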
